A study of Homo sapiens with 9 samples.

Results

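The genes described here are interleukin 11 (IL11), interleukin 6 (IL6) and leukaemia inhibitory factor (LIF), their receptor chains IL11RA, IL6R, IL6ST, LIFR and OSMR, and the signal genes STAT3 and SOCS3. All probe sets that the platform annotation gives to these 10 symbols were taken, which came to 19 of the 22215 probe sets tested. The 10 genes stand among 11963 symbols with a probe set of their own. They were chosen with the differences between these same arrays already known, so their values are given as a description and their calls carry no independent weight.

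RNA was measured in MDA-MB-231, a triple-negative human breast cancer cell line with mesenchymal traits, grown in DMEM with fetal bovine serum. Cells labelled shco4 and shco2 had been stably transduced with lentiviral pLKO vectors carrying 1 of 2 short hairpin RNAs (shRNA #4 and shRNA #2) against Coco, a secreted antagonist of BMP and related TGF-beta family ligands, also named DAND5. Cells labelled scramble carried a control hairpin, likewise from a lentiviral vector, so all 3 groups were stably transduced lines rather than parental cells. Each group had 3 biological replicates, 9 arrays in all. The labels do not say whether the replicates came from separate transductions, so the tests measure the spread between these samples, which may be cultures of 1 stable line. The knockdown of Coco itself was not analysed here.

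IL6 family cytokines signal through a shared membrane chain, gp130, which is the product of IL6ST. IL11 and IL6 first bind their own receptor chains, IL11RA and IL6R, and then pair gp130 molecules, whereas LIF and oncostatin M use gp130 together with LIFR or OSMR. The paired chains activate Janus kinases, which phosphorylate STAT3, and STAT3 induces SOCS3, which binds gp130 and damps the signal. In MDA-MB-231 cells IL11 is known from work on bone metastasis, where it promotes the formation of osteoclasts.

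The values are array intensities on a linear scale, with array medians of 122 to 129; how the authors scaled the arrays is not stated. Differences are on the log2 scale after values under 16 were set to 16. They come from a limma fit over all probe sets, with the standard error (SE) of that fit and 3 arrays a group. A probe set is written as called where its Benjamini-Hochberg adjusted p over the 22215 probe sets was under 0.05. With shco4 against scramble 18.8% of all probe sets were called, 9.05% higher and 9.75% lower. With shco2 against scramble 20.7% were called, 10.7% higher and 9.95% lower, and with shco4 against shco2 31% were called, 14.9% higher and 16.1% lower. Of the 19 member probe sets, 3 (15.8%) were called with shco4 against scramble, 4 (21.1%) with shco2 against scramble and 8 (42.1%) with shco4 against shco2. Because the genes were chosen from these contrasts, nothing is read from those shares. The comparisons share arrays with each other, so their values stand side by side without a test of overlap.

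The 2 ligand genes with called differences were IL11 and IL6. The 250 bases before their annotated starts are printed to show what lies upstream of these 2 genes, with the strand of the gene read 5′ to 3′ and the sequence taken from RefSeq on GRCh38.p14. The IL11 window is chr19:55370464-55370713 on the minus strand, and its capitals mark the only match to the AP-1 motif TGANTCA, 96 to 90 bases before the start. The IL6 window is chr7:22726950-22727199 on the plus strand, and its capitals mark the only match to the NF-kB motif GGANTTTCC, 72 to 64 bases before the start.
IL11: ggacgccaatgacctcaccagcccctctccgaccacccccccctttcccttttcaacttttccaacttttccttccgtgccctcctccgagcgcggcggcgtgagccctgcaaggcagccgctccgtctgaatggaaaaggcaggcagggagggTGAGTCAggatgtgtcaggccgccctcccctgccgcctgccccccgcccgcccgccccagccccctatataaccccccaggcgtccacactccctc
IL6: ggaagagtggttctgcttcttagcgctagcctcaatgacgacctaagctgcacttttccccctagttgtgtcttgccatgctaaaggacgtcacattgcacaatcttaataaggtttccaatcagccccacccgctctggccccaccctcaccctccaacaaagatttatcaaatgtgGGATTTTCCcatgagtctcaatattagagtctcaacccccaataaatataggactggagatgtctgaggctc

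Both motifs and the STAT motif TTCNNNGAA were searched on both strands. Of 35116 windows of this length, several of which can belong to 1 gene, 6.57% held the AP-1 motif, 1.45% the NF-kB motif and 6.57% the STAT motif. RefSeq windows were matched for 9 of the 10 genes, 13 windows in all. Among these 13 the AP-1 motif was found once, in IL11, and the NF-kB motif once, in IL6. The STAT motif was found in 2 windows, both of LIFR. These matches describe letters in a window and say nothing about binding in these cells.

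IL11 was the gene with the widest spread among the 10, and its 2 probe sets, read separately, placed the groups in the same order: shco4 lowest, scramble in between and shco2 highest. At 206924_at the intensities were 72.5, 271 and 113 in shco4 cells, 2549, 3129 and 1952 in shco2 cells, and 632, 911 and 404 in scramble cells (replicates 1 to 3). No array of any group overlapped another group. The log2 difference was -2.23 ± 0.53 for shco4 against scramble, or 4.71-fold lower, and 2.02 ± 0.53 for shco2 against scramble, or 4.06-fold higher. Between the hairpins it was -4.26 ± 0.53 for shco4 against shco2, a 19.1-fold difference. All 3 were called. In bulk RNA such as this, fewer cells that express a gene and less RNA per cell cannot be told apart.

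At the second IL11 probe set, 206926_s_at, the intensities were 31.8, 91.9 and 53.0 in shco4 cells, 1871, 1659 and 885 in shco2 cells, and 193, 253 and 93.2 in scramble cells. The groups again did not overlap, although the highest shco4 array lay just under the lowest scramble array. The log2 difference was 3.08 ± 0.55 (8.46-fold) for shco2 against scramble and -4.70 ± 0.55 (26.1-fold) for shco4 against shco2, and both were called. For shco4 against scramble it was -1.62 ± 0.55 and was not called, except with dim probe sets left out of the fit. The 2 probe sets of the gene thus gave the same direction in each comparison but a call for shco4 against scramble at 1 of them only.

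IL11 also varied among arrays of 1 group, and the 2 probe sets varied together, with a Pearson r of 0.974 over the 9 arrays and 0.921 after the group means were taken out. In shco4 and scramble cells the replicate 2 array was the highest at both probe sets. Arrays of the same replicate number gave shco4 over scramble ratios of 0.115, 0.297 and 0.281 at 206924_at, and of 0.165, 0.364 and 0.568 at 206926_s_at. The shco2 over scramble ratios were 4.04, 3.44 and 4.83 at 206924_at, and 9.72, 6.57 and 9.49 at 206926_s_at. Every number gave the same order of the groups.

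The called differences of IL11 from scramble at 206924_at rested on the full set of arrays. For shco4 against scramble the call ended with any of scramble replicates 1 and 2, shco2 replicates 1, 2 and 3 or shco4 replicates 1 and 3 left out, and also in a fit of only these 2 groups. Over all alternatives the difference ran between -2.76 and -1.81. For shco2 against scramble the call ended with any of the 3 scramble or 3 shco2 arrays or shco4 replicate 3 left out, with differences between 1.72 and 2.31. The shco2 against scramble call at 206926_s_at and both calls between the hairpins held in every alternative.

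**Figure D1:**
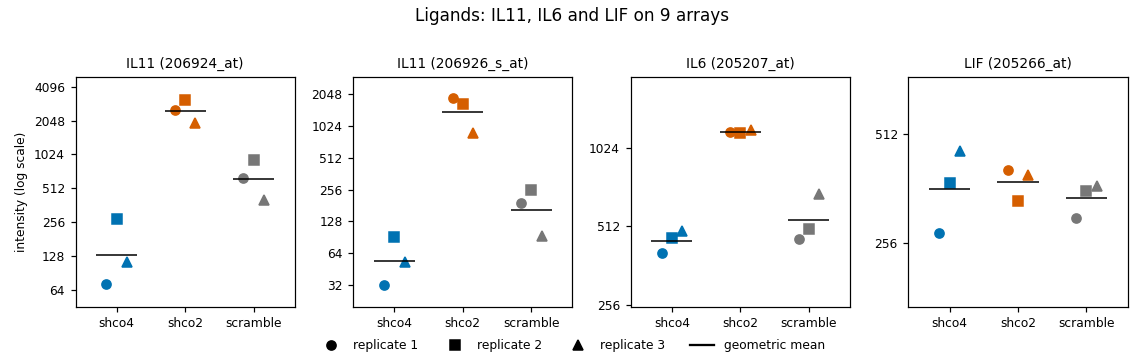
Intensity (log scale) of the 2 IL11 probe sets, IL6 and LIF on each of the 9 arrays, with shco4, shco2 and scramble cells side by side, a symbol for each replicate number and a line at the geometric mean. The 3 groups of IL11 are apart at both probe sets, IL6 is apart in shco2 cells alone, and LIF overlaps throughout.

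IL6 was higher in shco2 cells and overlapped between shco4 and scramble cells. The probe set 205207_at read 403, 461 and 489 in shco4 cells, 1175, 1161 and 1193 in shco2 cells, and 457, 500.3 and 683 in scramble cells. The 3 shco2 arrays lay closer together than those of either other group. The log2 difference was 1.13 ± 0.15 (2.19-fold) for shco2 against scramble and -1.39 ± 0.15 (2.62-fold) for shco4 against shco2, both called in every alternative. For shco4 against scramble it was -0.26 ± 0.15, not called.

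LIF, the ligand that pairs gp130 with LIFR, showed no called difference. Its probe set 205266_at read 273, 375 and 460.5 in shco4 cells, 407, 334 and 395 in shco2 cells, and 300.2, 356 and 367 in scramble cells, and all groups overlapped. The differences were 0.09 ± 0.20 for shco4 and 0.15 ± 0.20 for shco2 against scramble. The highest and the lowest LIF values were both in shco4 cells.

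Of the ligand-specific receptor chains, IL11RA was measured above the floor. Its probe set 204773_at read 142, 132 and 111 in shco4 cells, 74.0, 94.8 and 85.4 in shco2 cells, and 114, 94.8 and 120.1 in scramble cells. The hairpin groups did not overlap, with a called difference of 0.60 ± 0.14 (1.52-fold) for shco4 against shco2, while each overlapped with scramble. That call ended when the replicate number was added as a block (log2 difference 0.60) and without shco2 replicate 1 or 3 or shco4 replicate 1 or 2, where the difference was 0.51 to 0.61. Against scramble the differences were 0.23 ± 0.14 with shco4 and -0.37 ± 0.14 with shco2, neither called.

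IL6R, the chain that binds IL6, was dim. At 205945_at the intensities were 15.9, 28.8 and 27.1 in shco4 cells, 17.9, 8.05 and 17.3 in shco2 cells, and 5.36, 4.33 and 11.3 in scramble cells, so that 5 of the 9 arrays were at or under the floor of 16. The other IL6R probe set, 217489_s_at, was under the floor on all 9 arrays. No difference was called at either, and values at the floor have no order. Without shco4 replicate 1 the shco4 differences at 205945_at were called, at 0.80 against scramble and 0.71 against shco2, with all 3 scramble arrays under the floor.

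OSMR, a chain that oncostatin M uses together with gp130, fell in shco2 cells. The probe set 205729_at read 1303, 1196 and 1116 in shco4 cells, 652, 823 and 698 in shco2 cells, and 1264, 1338 and 1263 in scramble cells. The shco2 arrays were all below the other 6, and shco4 overlapped with scramble. The log2 difference was -0.84 ± 0.10 (1.79-fold lower) for shco2 against scramble and 0.74 ± 0.10 (1.67-fold higher) for shco4 against shco2, and both calls held in every alternative. For shco4 against scramble it was -0.10 ± 0.10.

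LIFR, the partner chain for LIF, lies next to OSMR among the protein-coding genes of chromosome 5 in the RefSeq table. Its probe set 205876_at read 125, 128 and 121 in shco4 cells, 49.2, 67.4 and 77.6 in shco2 cells, and 74.2, 89.6 and 123 in scramble cells. The hairpin groups were apart, and each overlapped with scramble. The difference for shco4 against shco2 was 0.97 ± 0.23 (1.96-fold) and was called, but not without shco4 replicate 1 or 2, and it ran between 0.78 and 1.11 over the alternatives. Against scramble it was 0.41 ± 0.23 with shco4 and -0.56 ± 0.23 with shco2, neither called.

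IL6ST, the shared chain gp130, had 5 probe sets and no called difference in any comparison on the full set of arrays. At 212195_at the intensities were 3149, 3291 and 3551 in shco4 cells, 2592, 2734 and 2985 in shco2 cells, and 2751, 2635 and 3616 in scramble cells. Here the hairpin groups did not overlap, with an uncalled difference of 0.27 ± 0.13 for shco4 against shco2 that was called without scramble replicate 3 (0.27). At 212196_at the difference between the hairpins was 0.28 ± 0.13, and 0.40 and called without shco2 replicate 1. Against scramble the 5 probe sets differed by between -0.02 and 0.16 with shco4 and by between -0.25 and 0.15 with shco2.

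The 5 probe sets of IL6ST did not all track each other. The probe sets 204863_s_at, 204864_s_at and 211000_s_at were lowest on the replicate 3 array of both shco4 and scramble cells. At 211000_s_at the intensities were 527, 522 and 248 in shco4 cells, 444, 395 and 329 in shco2 cells, and 477, 496 and 234 in scramble cells. Among themselves these probe sets correlated at 0.87 to 0.971 over the 9 arrays, and with 212195_at at -0.713 to -0.507. What sets them apart was not tested.

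STAT3, the transcription factor that the receptors activate, rose in shco4 cells at both of its probe sets. At 208991_at the intensities were 3220.1, 2763 and 2848 in shco4 cells, 1633, 1944 and 1748 in shco2 cells, and 1840.3, 2199 and 1909 in scramble cells. At 208992_s_at they were 2174, 1839.6 and 1766 in shco4 cells, 1217, 1176 and 1069 in shco2 cells, and 1262, 1360.0 and 1109 in scramble cells. All shco4 arrays lay above the other 6 at each probe set, and shco2 overlapped with scramble.

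For shco4 against scramble the STAT3 differences were 0.57 ± 0.10 (1.49-fold) and 0.63 ± 0.11 (1.55-fold), and against shco2 they were 0.73 ± 0.10 and 0.74 ± 0.11. These calls held in every alternative. For shco2 against scramble the differences were -0.16 ± 0.10 and -0.10 ± 0.11, not called. The arrays measure STAT3 messenger RNA and not its phosphorylation.

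SOCS3, the feedback inhibitor that STAT3 induces, had no called difference. At 206359_at the intensities were 56.0, 83.7 and 117 in shco4 cells, 68.7, 24.5 and 36.7 in shco2 cells, and 83.0, 116 and 114 in scramble cells. All shco2 arrays were below all scramble arrays, with an uncalled difference of -1.38 ± 0.43, which was -1.78 and called without shco2 replicate 1 and was called as well with floor-level probe sets left out. The difference for shco4 against shco2 was 1.05 ± 0.43, and 1.45 and called without shco2 replicate 1. At 206360_s_at the intensities were 75.6, 81.9 and 94.1 in shco4 cells, 71.8, 70.2 and 66.1 in shco2 cells, and 145, 81.8 and 91.6 in scramble cells, with a difference of -0.57 ± 0.21 for shco2 against scramble. At the third probe set, 214105_at, 6 arrays were under the floor.

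**Figure D2:**
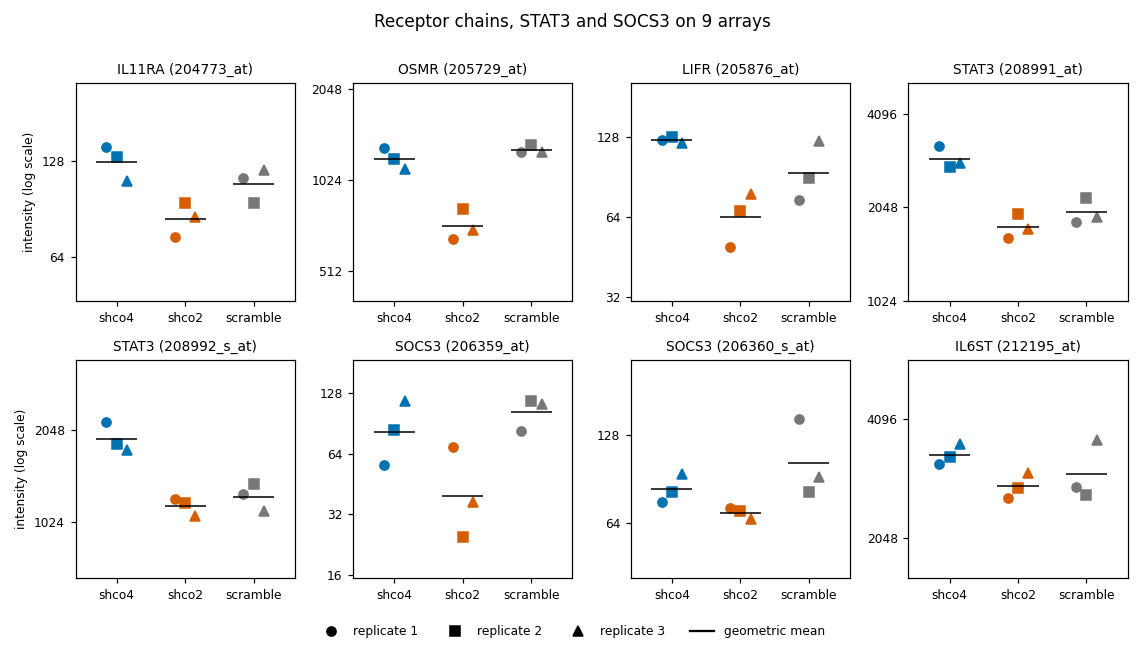
Intensity (log scale) of IL11RA, OSMR, LIFR, the 2 STAT3 probe sets, 2 SOCS3 probe sets and IL6ST at 212195_at on each array, in shco4, shco2 and scramble cells, with a symbol for each replicate number and a line at the geometric mean. OSMR is apart in shco2 cells, at 652 to 823, and STAT3 is apart in shco4 cells, at 2763 to 3220.1 and 1766 to 2174.

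**Figure D3:**
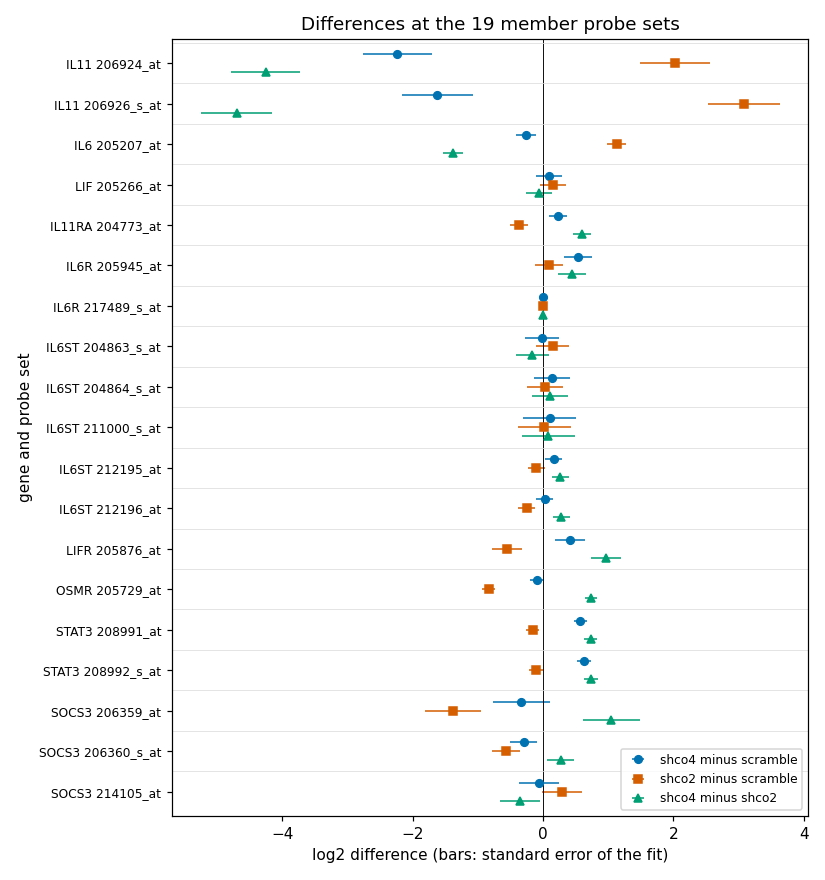
The log2 difference of each of the 19 member probe sets for shco4 against scramble, shco2 against scramble and shco4 against shco2, with bars of 1 standard error of the fit. The IL11 probe sets reach from -4.70 to 3.08, and all others lie between -1.39 and 1.13.

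Across the 19 probe sets the median difference was 0.02 for shco4 against scramble, 0 for shco2 against scramble and 0.27 for shco4 against shco2, beside a median of 0 over all probe sets in each comparison. Of the 10 genes, IL11 alone was called against scramble with both hairpins, in opposite directions and at 206924_at only. Both of those calls ended when single arrays were left out. At 206926_s_at IL11 was called against scramble with shco2 but not with shco4. IL6 and OSMR were called against scramble with shco2, and STAT3 with shco4.

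The probe sets whose levels followed the cytokines most closely were picked by Pearson r over the 9 arrays among 11576 probe sets of other genes with at least 1 array at 100 or more. They share those arrays and are listed as a description. For IL11 at 206924_at they were BCLAF1 (r = 0.9931), NEMP1 (0.9931) and DSCC1 (0.9913). For IL11 at 206926_s_at they were CDC5L (0.9914), PEA15 (0.9873) and NOLC1 (0.9873). The 2 probe sets of IL11 had none of these genes in common. For IL6 they were FAS (0.9935), MTFR1 (0.989) and DNAJA1 (0.9872).

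Of the further IL6 family ligands and receptor chains, 6 of the 10 listed genes were measured. CNTF, ciliary neurotrophic factor, was higher with shco2, and IL27RA, the interleukin 27 receptor chain, was lower with shco4. CNTF read 18.9, 31.2 and 24.1 in shco4 cells, 54.4, 57.6 and 56.1 in shco2 cells, and 22.3, 28.0 and 35.0 in scramble cells. Its difference of 1.003 ± 0.22 for shco2 against scramble (adjusted p = 0.0217) is one of dim values: every array was under 64, and the call ended on leaving out any of 5 arrays (scramble replicates 1 and 2, and shco2 replicates 1, 2 and 3). IL27RA read 91.1, 74.8 and 60.6 in shco4 cells, 209.5, 225 and 206 in shco2 cells, and 215, 213 and 172 in scramble cells, a difference of -1.42 ± 0.16 for shco4 against scramble (adjusted p = 0.00237). For shco4 against shco2 CNTF differed by -1.21 ± 0.22 (adjusted p = 0.0068), a call that also ended with a floor of 64, and IL27RA by -1.52 ± 0.16 (adjusted p = 0.000764). The remaining members of this list were not called against scramble with either hairpin.

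Among 19 measured genes of the JAK-STAT relay and its brakes, none was called higher and 2 lower with shco4 against scramble, and 5 higher and 5 lower with shco2 against scramble. The median difference was 0.13 with shco4 and 0.10 with shco2. Over all probe sets 18.8% were called with shco4 and 20.7% with shco2. Those shares include floor-level probe sets, whereas each list gene was taken at its probe set with the highest mean. Nothing is therefore read from the counts of this list or of the other lists. JAK1, the kinase that carries most gp130 signalling, was lower with both hairpins. It read 578, 615 and 687 in shco4 cells, 599, 635 and 657 in shco2 cells, and 1988, 1944 and 2027 in scramble cells. Both hairpin groups lay far below scramble and overlapped with each other.

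The JAK1 difference was -1.67 ± 0.07 (3.18-fold lower, adjusted p = 0.00019) for shco4 and -1.66 ± 0.07 (3.15-fold lower, adjusted p = 0.000132) for shco2 against scramble, and -0.01 ± 0.07 for shco4 against shco2. JAK1 has a single probe set, and both comparisons use the same 3 scramble arrays, so a change in the hairpin lines and a change in the scramble line cannot be told apart. SOCS1, another inhibitor of Janus kinases, differed by -0.91 ± 0.17 with shco4 (adjusted p = 0.0128) and by -0.86 ± 0.17 with shco2 (adjusted p = 0.0134), at 1 of its 4 probe sets. The limit of shared scramble arrays holds for SOCS1 too.

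ADAM10 and ADAM17, proteases that shed receptors such as IL6R from the cell surface, differed in opposite directions in shco2 cells. ADAM10 read 3866, 4287 and 4215 in shco4 cells, 1461, 1799.8 and 1742 in shco2 cells, and 3657, 3172 and 3623 in scramble cells, a difference of -1.07 ± 0.10 for shco2 against scramble (adjusted p = 0.000999). ADAM17 differed by 0.60 ± 0.10 in that comparison (adjusted p = 0.00778). STAT5B rose by 0.36 ± 0.06 (adjusted p = 0.00903) and PTPN11, the phosphatase SHP2 that gp130 recruits, by 0.60 ± 0.11 (adjusted p = 0.0123). None of these 4 genes was called with shco4 against scramble. For shco4 against shco2 all 4 were called, ADAM10 at 1.31 ± 0.10 (adjusted p = 0.000213), STAT5B at -0.45 ± 0.06 (adjusted p = 0.00242), ADAM17 at -0.46 ± 0.10 (adjusted p = 0.0137) and PTPN11 at -0.51 ± 0.11 (adjusted p = 0.0148), the last not without shco2 replicate 2 (-0.45).

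**Figure D4:**
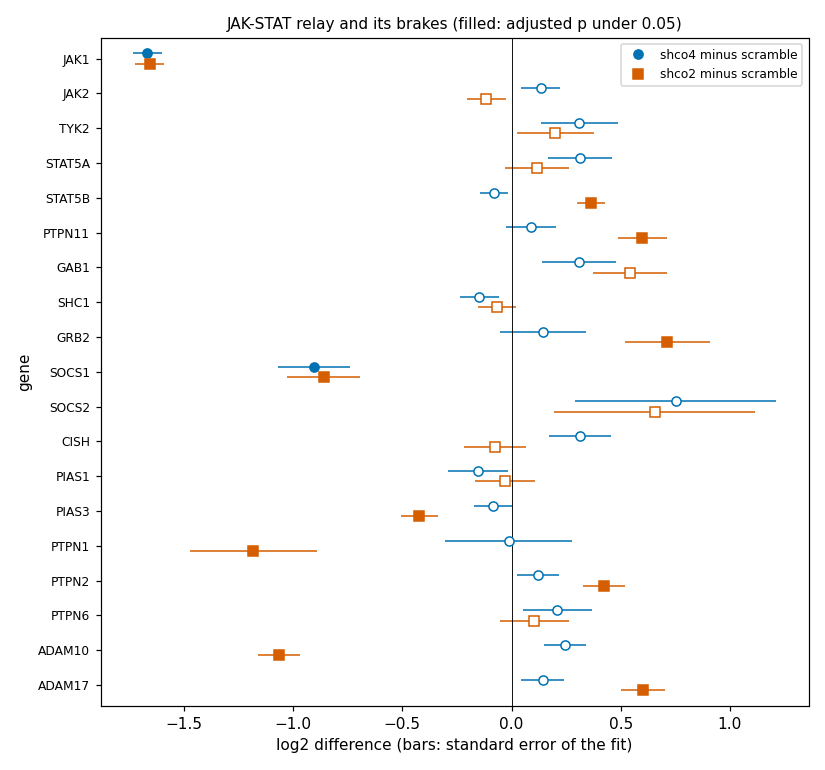
The log2 difference of the 19 measured JAK-STAT relay genes for shco4 against scramble and shco2 against scramble, with bars of 1 standard error of the fit and filled symbols where the adjusted p was under 0.05. JAK1, at -1.67 and -1.66, and SOCS1, at -0.91 and -0.86, are filled in both comparisons.

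Of 17 measured STAT3 target genes, 3 were called higher and 2 lower with shco4 against scramble, and 2 higher and 7 lower with shco2 against scramble. For shco4 against shco2, 6 were called higher and 3 lower. The medians were 0.05, -0.01 and 0.19 in the same order of comparisons. Over all probe sets 18.8%, 20.7% and 31% were called in these comparisons. IRF1, an interferon regulatory factor, read 884, 907 and 838 in shco4 cells, 461, 433 and 456 in shco2 cells, and 770.3, 713 and 775 in scramble cells. It was lower with shco2 against scramble (-0.74 ± 0.05, adjusted p = 0.000316) and higher with shco4 against scramble (0.22 ± 0.05, adjusted p = 0.0201).

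The shco4 call of IRF1 ended without shco4 replicate 1 or 2, with low probe sets left out and in a fit of the 2 groups only, with differences of 0.19 to 0.22 in those fits. With shco2 against scramble TIMP1, an inhibitor of matrix metalloproteinases, fell by 0.58 (SE 0.09, adjusted p = 0.00549) and the adhesion molecule ICAM1 fell by 0.97 (SE 0.17, adjusted p = 0.00843), whereas CEBPB rose by 0.26 ± 0.04 (adjusted p = 0.00833). With shco4 against scramble PIM1, a survival kinase, fell by 0.45 (SE 0.08, adjusted p = 0.012). VEGFA, an angiogenic factor, differed by -0.95 ± 0.19 with shco4 (adjusted p = 0.0176), a call that ended without scramble replicate 1 or 3 or shco4 replicate 1 or 2 and in a fit of the 2 groups only (-0.97 to -0.82 in those fits). With shco2 against scramble VEGFA fell by 1.08 (SE 0.19, adjusted p = 0.00962), and that call held in every alternative. All 4 VEGFA probe sets were called lower against scramble with each hairpin. For VEGFA and PIM1, as for JAK1, both comparisons use the same scramble arrays, so a change in the scramble line cannot be told apart. JUNB differed by 0.90 ± 0.22 with shco4 (adjusted p = 0.0339), which ended in a fit of the 2 groups only and with any of 7 arrays left out (0.77 to 0.99 in those fits). These 7 were all 3 scramble arrays, shco2 replicates 2 and 3, and shco4 replicates 1 and 2.

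Between the hairpins IRF1 was higher by 0.96 ± 0.05 (adjusted p = 5.98e-05), TIMP1 by 0.84 ± 0.09 (adjusted p = 0.000741) and ICAM1 by 0.92 ± 0.17 (adjusted p = 0.00651) in shco4 against shco2. CEBPB fell by 0.21 in shco4 against shco2 (SE 0.04, adjusted p = 0.0116), a call that ended with dim or floor-level probe sets left out.

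Of 13 transcription factors known to act on the IL6 or IL11 promoter, 3 were called higher and 1 lower with shco4 against scramble, and 1 higher and 3 lower with shco2 against scramble. The shares called over all probe sets were 18.8% and 20.7%. FOSL1, the AP-1 subunit FRA1, read 1367, 1685 and 2234 in shco4 cells, 4359, 3479 and 4736 in shco2 cells, and 4348, 4643 and 4609 in scramble cells. Its arrays were lower in shco4 cells than in all others, with a difference of -1.39 ± 0.19 for shco4 against scramble (adjusted p = 0.00468) and -1.27 ± 0.19 for shco4 against shco2 (adjusted p = 0.00322). NFKB1, the NF-kB subunit p50, was higher with both hairpins than in scramble, by 0.57 ± 0.06 with shco4 (adjusted p = 0.00162) and by 0.70 ± 0.06 with shco2 (adjusted p = 0.000704). It has 1 probe set and differed by -0.13 ± 0.06 for shco4 against shco2, not called. As for JAK1, a change in the hairpin lines and a change in the scramble line cannot be told apart.

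RELA, the NF-kB subunit p65, fell by 0.49 with shco2 against scramble (SE 0.06, adjusted p = 0.0022), at 1 of its 2 probe sets. SMAD3, a mediator of TGF-beta and activin signals, fell by 0.90 with shco2 against scramble (SE 0.11, adjusted p = 0.0023). CREB1 differed by -0.46 ± 0.10 with shco2 (adjusted p = 0.0211), a call lost on leaving out scramble replicate 3, shco2 replicate 1 or shco2 replicate 2 (-0.44 to -0.38 in those fits). For shco4 against shco2, 4 of the 13 were called higher and 1 lower, RELA at 0.71 ± 0.06 (adjusted p = 0.000294), SMAD3 at 0.86 ± 0.11 (adjusted p = 0.00139) and CREB1 at 0.58 ± 0.10 (adjusted p = 0.00556) among them. In that comparison 31% of all probe sets were called.

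JUND, another AP-1 subunit, differed by 0.58 ± 0.13 with shco4 against scramble (adjusted p = 0.0269), but not without scramble replicate 1 or 2 or shco4 replicate 2 or 3 or in a fit of the 2 groups only (0.47 to 0.62 in those fits). RELA's difference of 0.21 ± 0.06 with shco4 (adjusted p = 0.0454) ended with any array but scramble replicate 2 left out, with a floor of 64, median centring or either filter on low probe sets, and in a fit of the 2 groups only (0.16 to 0.25 in those fits). Its adjusted p was 0.0521 with the replicate block.

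Of the genes reported beside IL11 in bone-seeking MDA-MB-231 cells 7 were measured, with none called higher and 1 lower with shco4, and 1 higher and 2 lower with shco2, against scramble. The shares over all probe sets were 18.8% and 20.7%. CCN2, connective tissue growth factor, read 243, 477 and 900.0 in shco4 cells, 2657, 2488 and 3222 in shco2 cells, and 1731, 1992 and 2345 in scramble cells. Its shco4 against scramble difference was -2.09 ± 0.45 (adjusted p = 0.0214), and it ended without any 1 scramble array or shco4 replicate 2 and in a fit of the 2 groups only (-2.20 to -1.98 in those fits). For shco4 against shco2 it was -2.56 ± 0.45 (adjusted p = 0.00566).

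MMP1, a collagenase, read 60.3, 43.6 and 59.2 in shco4 cells, 26.9, 14.8 and 28.8 in shco2 cells, and 74.5, 82.3 and 63.1 in scramble cells, so its calls with shco2 against scramble (-1.66 ± 0.26, adjusted p = 0.00603) and with shco4 against shco2 (1.22 ± 0.26, adjusted p = 0.012) rest on low intensities and ended with a floor of 64. FST, the activin antagonist follistatin, was called with shco2 at 1 of its 2 probe sets (-0.63 ± 0.15, adjusted p = 0.0297, and 0.0503 with the replicate block). That call was lost on leaving out any of scramble replicates 1 and 2, shco2 replicates 1 and 3 and shco4 replicate 3 and in a fit of the 2 groups only (-0.66 to -0.51 in those fits). FGF5 was called with shco2 at 1 of its 3 probe sets (0.93 ± 0.26, adjusted p = 0.0478), a call that ended with a floor of 64 (0.65), with the trended robust prior and in a fit of the 2 groups only. It also ended with any array left out other than scramble replicate 2 and shco4 replicate 1 (0.74 to 1.07).

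Of 11 other measured cytokines, 1 was called higher and none lower with shco4, and 1 higher and 1 lower with shco2, against scramble. Among all probe sets 18.8% and 20.7% were called. IL15 read 327, 295 and 304 in shco4 cells, 371, 391 and 391 in shco2 cells, and 302, 284 and 280.5 in scramble cells, and rose by 0.41 ± 0.05 with shco2 (adjusted p = 0.00216). That rise was called at 1 of its 2 probe sets. The neutrophil chemokine CXCL8 read 116, 222 and 188 in shco4 cells, 517, 475 and 555 in shco2 cells, and 191, 240.3 and 459 in scramble cells. Its difference was called for the 2 hairpins against each other, at -1.61 ± 0.37 for shco4 against shco2 (adjusted p = 0.0174), and not without shco2 replicate 1 or 3 (-1.60 to -1.55).

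CSF1, the macrophage growth factor, differed by 1.49 ± 0.24 for shco4 against shco2 (adjusted p = 0.00419). With shco2 against scramble it differed by -0.89 ± 0.24 (adjusted p = 0.0454, and 0.0664 with the replicate block), a call that ended with a floor of 64 and with any array left out other than shco4 replicates 1 and 3 (-1.02 to -0.77 in those fits). CSF1 has 4 probe sets, and in each of these comparisons 1 other was called the same way. With shco4 against scramble this probe set was not called (0.60 ± 0.24), and 1 other was called lower. IL32 differed by 1.18 ± 0.32 with shco4 against scramble (adjusted p = 0.0485), a call that ended with a floor of 64, with the trended robust prior, in a fit of the 2 groups only and with any array left out other than shco4 replicate 3 (0.91 to 1.36 in those fits). IL15 differed for shco4 against shco2 by -0.32 ± 0.05 (adjusted p = 0.00304), again called at 1 of its 2 probe sets.

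Defining markers of the cell line were bright. The summed intensity of the mesenchymal markers VIM, CD44, CAV1 and AXL was 29806 to 31513 in shco4 cells, 24733 to 25999 in shco2 cells and 35317 to 37393 in scramble cells, with no overlap between groups. With shco4 against scramble CD44 was called higher (0.36 ± 0.06, adjusted p = 0.011) and AXL lower (-2.11 ± 0.11, adjusted p = 0.000248). With shco2 against scramble VIM (-0.32 ± 0.04, adjusted p = 0.00233), CD44 (-0.52 ± 0.06, adjusted p = 0.00273) and CAV1 (-1.37 ± 0.07, adjusted p = 0.000192) were called lower. CD44 has 8 probe sets, and besides the one given 2 were called higher with shco4 and 5 lower with shco2. Of 6 luminal markers FOXA1 and PGR were at the floor on all 9 arrays, whereas GATA3 read 494 to 683 in shco4 cells, 437 to 471 in shco2 cells and 560.2 to 671 in scramble cells. With shco4 ESR1 was called higher (0.77 ± 0.20, adjusted p = 0.0439) and ERBB3 lower (-0.86 ± 0.07, adjusted p = 0.000894), and with shco2 CDH1 was called lower (-1.37 ± 0.32, adjusted p = 0.0258). The ESR1 call was at 1 of its 9 probe sets and rests on dim values, 23.2 to 54.1 over the 9 arrays. ERBB3 and CDH1 were each called at 1 of their 2 probe sets. The luminal markers together summed to 814 to 1046 in shco4 cells, 611 to 662 in shco2 cells and 822 to 913 in scramble cells. Fibroblast markers summed to 278 to 396 in shco4 cells, 110 to 143 in shco2 cells and 142 to 184 in scramble cells. Of 6 measured fibroblast markers, 1 was called with shco4 against scramble, LUM (3.34 ± 0.31, adjusted p = 0.0012), and FAP stayed at or under the floor throughout. Of 4 leukocyte markers 1 was called with shco4, CD14 (1.42 ± 0.39, adjusted p = 0.049), and their sums were 146 to 317, 62.8 to 117 and 72.4 to 122 in shco4, shco2 and scramble cells. Endothelial markers summed to 33.5 to 60.5 in shco4 cells, 34.8 to 75.7 in shco2 cells and 55.1 to 80.5 in scramble cells, with VWF and TEK at the floor. The luminal sums were lower in shco2 cells than in the other 2 groups, and the fibroblast and leukocyte sums higher in shco4 cells than in the other 2 groups, while the endothelial sums overlapped. LUM alone read 128 to 296 in shco4 cells, 3.86 to 13.8 in shco2 cells and 18.2 to 25.0 in scramble cells. CD14 alone read 109 to 250, 38.5 to 71.3 and 47.4 to 73.0 in the same order. No other fibroblast or leukocyte marker was called against scramble. Over all probe sets 18.8% were called with shco4 and 20.7% with shco2 against scramble, so nothing is read from the counts of called markers. The higher sums include LUM and CD14 and are not read as a rise of either whole list. The part of these differences in the results was not tested. The ratios of 3′ to 5′ control probe sets were 1.07 to 1.14 for ACTB and 0.868 to 0.958 for GAPDH.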

How the data were processed

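Total RNA of 9 MDA-MB-231 samples was labelled as biotin-cRNA from 200 ng and hybridized to Affymetrix 3′ arrays, per the labels' protocols. The deposited values are linear intensities with array medians of 122 to 129; whether and how the authors scaled them between arrays is not stated, and the summary software is not given in the sources used here. Of 22277 probe sets, 62 controls were left out. The platform annotation gives 1 symbol to 19064 of the rest, several to 1043 and none to 2108. Values under 16 were set to 16, and 2611 probe sets were there on every array; log2 values were fitted with limma 3.58.1 in R 4.3.3 on all 9 arrays (lmFit, eBayes, 3 contrasts, Benjamini-Hochberg over 22215 probe sets). The script was tested on simulated data. The number of arrays limits the precision.

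The genes and lists were chosen with earlier results of these data known. All member probe sets were named; from each list, the called genes with the 4 smallest p in each comparison, at the probe set with the highest mean; and for the cytokines, the 3 most similar genes. The 6 pathway lists held 82 genes, and those without a probe set of 1 symbol were not analysed here. Alternatives were a floor of 64, quantile normalization, median centring, filters on dim probe sets (mean under 100) and on floor-level ones, a trended robust prior, only the 2 groups compared, a replicate block, and each array left out.

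Replicate numbers come from the sample titles. Deviations from group means correlated between arrays of the same number at 0.133 to 0.235 for shco4 and scramble, 0.0571 to 0.29 for shco2 and scramble and 0.0576 to 0.213 for shco4 and shco2. Over probe sets with a mean of at least 100 the values were 0.319 to 0.431, 0.14 to 0.546 and 0.129 to 0.407. Between arrays of different numbers they were -0.367 to -0.0781, -0.497 to 0.126 and -0.332 to 0.033 over the same probe sets. The numbers were therefore taken to pair the samples. The results given are from the fit without a block, and the fit with the replicate block is given beside a result where it ended the call. Calls of list genes that only the block would give are not listed.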

Additional observations from a re-analysis of the deposited data

How the results depend on the processing

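Of the 15 called differences of member probe sets, 11 kept their call in every alternative; the 4 others are those of IL11 at 206924_at against scramble with each hairpin, and of IL11RA and LIFR between the hairpins. Of the 70 called differences of list genes, 36 kept their call in every alternative. None of these called differences changed sign. In a fit of only the 2 groups compared, 6 list genes were called with shco4 against scramble, where all 9 arrays gave 14. With 1 array left out, the called probe sets numbered 2760 to 3938 with shco4 against scramble (4178 on all arrays), 3258 to 4602 with shco2 against scramble (4589) and 5715 to 6691 with shco4 against shco2 (6881). The called list genes then numbered 6 to 15, 17 to 28 (29 on all arrays) and 21 to 28, and the called member probe sets 2 to 3, 3 to 4 and 6 to 9, in the same order. With the replicate block the called probe sets numbered 4913, 5345 and 7581. Among members the block changed the call of IL11RA only. SOCS3 at 206359_at and IL6R at 205945_at are dim: with a floor of 64 the SOCS3 difference was -0.65 for shco2 against scramble, and IL6R was at the floor on every array. Intensities near 16 cannot be ordered.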
